A study of Rattus norvegicus with 10 samples.

Results

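The sortilin family, also called the VPS10 domain receptors, was described in pancreatic islets, clusters of endocrine cells that release insulin and glucagon. Its 5 genes are Sorcs2, Sorcs1, Sorcs3, Sort1 and Sorl1. Every probeset whose platform annotation names exactly 1 gene symbol, and that symbol is one of these, was taken. That gave 14 of the 31099 probesets on the array: 1 for Sorcs2, 1 for Sorcs1, 2 for Sorcs3, 2 for Sort1 and 8 for Sorl1. The family was chosen by the measured diet difference of Sorcs2, which stood among the genes of lowest p for the same comparison on these arrays; the other 4 genes joined as its relatives. The diet values below are therefore a description, and no p is given for a receptor gene.

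Islets came from male Wistar rats aged 7 weeks, caged individually and fed for 10 days. The 5 cafeteria diet arrays came from rats that took 66% of calories from fat, and the 5 standard chow arrays from rats that took 8%. Collagenase digestion, a Histopaque gradient and selection under a microscope gave the islets, and each Affymetrix rat genome array carried an independent sample. Groups follow the titles; in all 10 samples the diet characteristic names the opposite diet, and if it were right every direction given here would turn.

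VPS10 domain receptors span the membrane once and bind their ligands through an outer domain first described in yeast Vps10, a sorting receptor that carries an enzyme to the vacuole. Their short inner tails bind adaptor proteins and retromer, which move the receptor and its cargo between the trans-Golgi network, endosomes, the cell surface and secretory granules. In mice, variation at Sorcs1 has been linked to diabetes and to the supply of insulin granules, which is why the family is of interest in islets.

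The tissue label was checked against islet markers. Ins1 averaged a signal of 21139 ± 4904 in the cafeteria group and 18693 ± 1994 in the standard group (SD, n = 5 each), and Gcg averaged 35500 ± 2775 in the cafeteria group and 30404 ± 3329 in the standard group, so both main islet hormones were bright. Of the β-cell markers, 7 of 10 were on the array under a single symbol, and all 7 were above the signal filter. That filter kept 18625 probesets whose mean log2 signal was above the 40th percentile of all non-control probesets. It kept 10 of the 14 receptor probesets: Sorcs2, both for Sort1 and 7 for Sorl1. The probesets of Sorcs1 and Sorcs3 and 1 of Sorl1 were dimmer and were left out of the fit. The number of arrays limits the precision of every value.

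Sorcs2 encodes a receptor known from mouse neurons, where it binds the precursors of neurotrophins together with the p75 receptor. Its probeset 1389193_at read 445, 496, 421, 414 and 475 in cafeteria replicates 1 to 5, against 624, 537, 652, 595 and 551 in standard replicates 1 to 5 (deposited MAS5 signal, linear scale). Every cafeteria array lay below every standard array. The nearest were cafeteria replicate 2 at 496 and standard replicate 2 at 537. The means were 450.3 ± 35.0 in the cafeteria group and 592 ± 48.4 in the standard group (SD, n = 5 each), and the coefficients of variation were 7.77% in the cafeteria group and 8.18% in the standard group. On the log2(signal + 14.15) scale the difference, cafeteria minus standard, was −0.38 (SE 0.085, 95% interval −0.57 to −0.20), a 1.30-fold lower level. Sorcs2 stood at percentile 72.5 of the non-control probesets by mean log2 signal, well above the filter. In islet RNA of this kind, fewer cells of a type and less RNA per cell cannot be told apart.

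**Figure D1:**
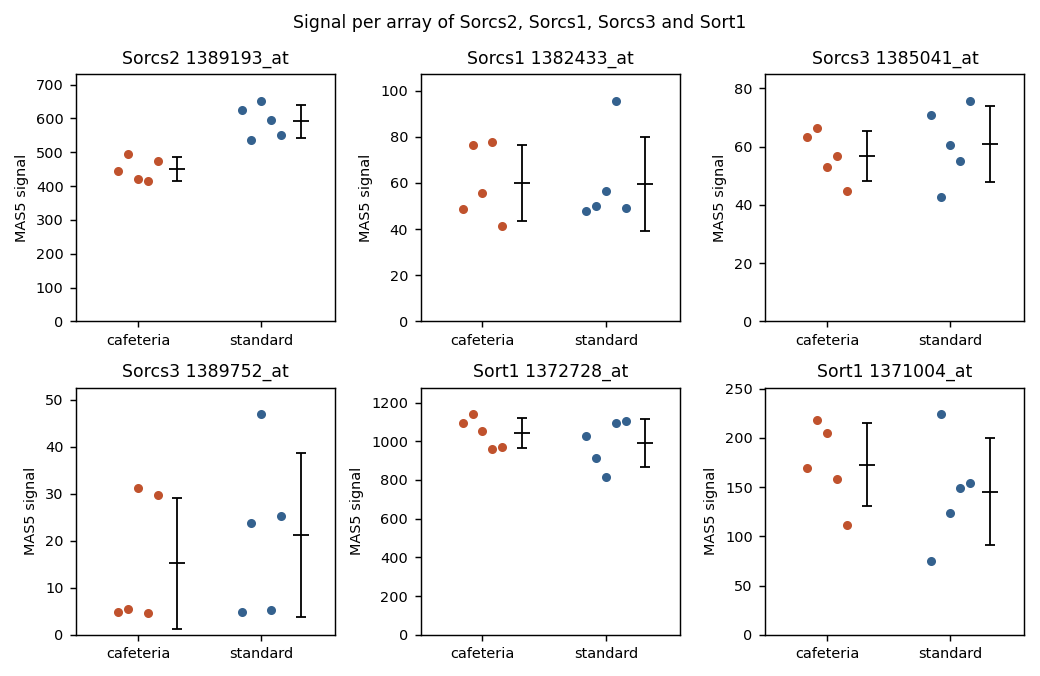
MAS5 signal (linear axis from 0) on each array for the probesets of Sorcs2, Sorcs1, Sorcs3 and Sort1, with cafeteria arrays at left and standard arrays at right in each panel; points are arrays in replicate order and bars show mean ± SD (n = 5). The Sorcs2 points of the cafeteria group (414 to 496) all lie below those of the standard group (537 to 652), while the groups overlap in the other panels.

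A measure of RNA integrity differed between the diets along with Sorcs2. The ratio of 3 prime to 5 prime signal of the GAPDH control probesets, which is higher where RNA is degraded, averaged 1.01 in the cafeteria group and 1.16 in the standard group. The log2 difference was −0.21 (exact two-sided permutation p = 0.0238, adjusted p = 0.0476 over 2 control genes). Without standard replicate 1, 3, 4 or 5 the exact p was 0.0556 to 0.0635. The beta-actin ratio averaged 2.65 in the cafeteria group and 2.81 in the standard group (exact two-sided permutation p = 0.405).

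Within the groups, Sorcs2 and the GAPDH ratio varied together, more closely in standard arrays (r = 0.88) than in cafeteria arrays (r = 0.47). Over the deviations of 10 arrays from their group means, Pearson's r was 0.71 and Spearman's rho 0.72. Without the 2 arrays whose log2 ratio deviations lay farthest from the median deviation, r was 0.62. Among standard arrays, replicate 1 had a ratio of 1.26 and replicate 3 one of 1.24, and these were the arrays with the highest Sorcs2 signals. The r of 0.71 was one of 18 such correlations over 10 arrays computed for Sorcs2, and it is given with no p. For the beta-actin ratio, r with Sorcs2 was 0.20 over the 10 deviations. It was −0.41 within cafeteria arrays and 0.95 within standard arrays. The 2 control genes thus went with Sorcs2 alike in standard arrays, but with opposite signs in cafeteria arrays. For the median log2 signal of each array, r with Sorcs2 was 0.17 over the 10 deviations. Within cafeteria arrays that r was −0.41, and within standard arrays 0.78. When the GAPDH ratio was added to the fit as a covariate, the Sorcs2 difference was −0.24 (SE 0.109), smaller by over 1.5 times. The SE in the main fit was 0.085, so the value with the covariate was both smaller and less precise. In the other 22 alternative settings the difference moved less. The part of RNA integrity in the Sorcs2 difference was not tested beyond this fit.

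**Figure D2:**
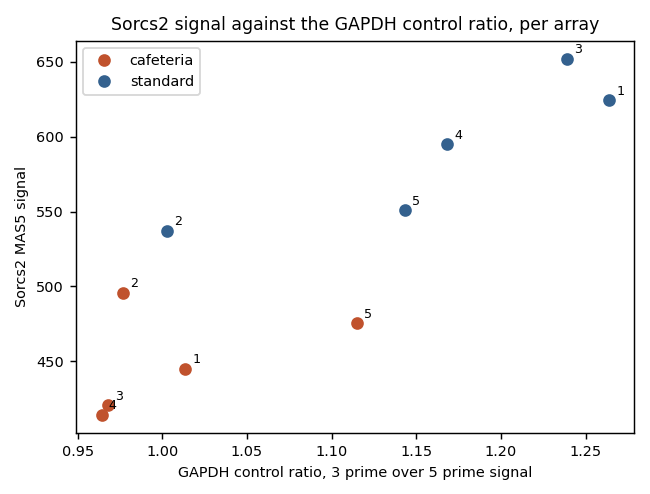
Sorcs2 MAS5 signal (vertical axis, linear, not starting at 0) against the 3 prime to 5 prime GAPDH control ratio (horizontal axis, no unit) for the 10 arrays, coloured by diet and numbered by replicate. Cafeteria arrays sit at ratios of 0.964 to 1.11 and standard arrays at 1.00 to 1.26, and the higher ratios within the standard group go with the higher Sorcs2 signals.

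For all 11 marker lists, of islet cells and of other cells that hand-picked islets can carry, the array means of the diets overlapped. All 17 immune markers above the filter were lower in the cafeteria group, and their mean log2 signal per array ran from 7.90 to 9.33 there, against 7.96 to 9.66 in the standard group (exact permutation p = 0.151). Their summed signal ran from 6571 to 24334 in cafeteria arrays and from 6996 to 25386 in standard arrays. The lowest single signal among them was 16.8. With the immune mean as a covariate, the Sorcs2 difference was −0.38. The 11 acinar markers had a mean log2 signal of 8.55 to 10.79 in cafeteria arrays and 9.61 to 10.82 in standard arrays (exact permutation p = 0.429), and with that mean as a covariate Sorcs2 differed by −0.39. The 4 glial and neuronal markers above the filter ran from 9.71 to 10.17 in cafeteria arrays and 9.48 to 9.88 in standard arrays (exact permutation p = 0.103). The glial genes S100b, Sox10 and Gfap were below the filter. Of the 11 marker lists, 0 passed the exact permutation test after adjustment, with a lowest adjusted p of 0.367. In this design the smallest p is 0.00794.

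Sorcs1 and Sorcs3 are the closest relatives of Sorcs2 and lie next to each other on the chromosome in the RefSeq annotation of assembly GRCr8, with 0 protein-coding genes between them. Sorcs1, the diabetes-linked member in mice, read 48.6, 76.3, 55.6, 77.8 and 41.4 in cafeteria arrays, against 47.65, 49.8, 56.6, 95.6 and 49.0 in standard arrays (probeset 1382433_at). The groups overlapped, with means of 59.9 ± 16.4 in the cafeteria group and 59.7 ± 20.3 in the standard group (SD, n = 5 each). Standard replicate 4 was the highest of the 10 arrays. The probeset stood at percentile 30.0 by mean log2 signal and did not pass the filter.

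Sorcs3, a receptor of brain synapses in mice, was measured by a pair of dim probesets. The brighter one, 1385041_at, read 63.4, 66.5, 53.15, 56.8 and 44.65 in cafeteria arrays, against 70.8, 42.6, 60.5, 55.0 and 75.7 in standard arrays. The other, 1389752_at, read 4.83, 5.54, 31.2, 4.73 and 29.8 in cafeteria arrays, against 4.83, 23.8, 46.9, 5.26 and 25.2 in standard arrays. The groups overlapped for both. The second probeset swung between about 5 and over 20 within each diet, at percentile 7.99 by mean log2 signal. The deposited table has no detection calls, and 3 control probesets for a bacterial trp transcript ranged from 2.33 to 44.67 over the same arrays, so it is not known whether Sorcs1 and Sorcs3 were above background. No fold change is given for either gene.

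Sort1 encodes sortilin, which binds neurotensin, progranulin and the precursors of neurotrophins. The brighter probeset 1372728_at read 1097, 1140.1, 1052, 961 and 972 in cafeteria arrays, against 1027, 915, 816, 1093 and 1105 in standard arrays. The groups overlapped: 1 cafeteria array, replicate 2, lay above every standard array. The means were 1044 ± 77.8 in the cafeteria group and 991 ± 123 in the standard group (SD, n = 5 each). The log2 difference was 0.08 (SE 0.10), with a 95% interval from −0.14 to 0.30, that is from 0.907 to 1.23 times the standard level.

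The second Sort1 probeset, 1371004_at, was dimmer and more variable. It read 169.8, 218, 205, 159 and 111 in cafeteria arrays, against 74.8, 224, 124, 149 and 155 in standard arrays. Both the lowest and the highest of the 10 values were in the standard group. The log2 difference was 0.27 (SE 0.245, 95% interval −0.27 to 0.80), so a change of either sign lay within its interval. It was 0.07 without standard replicate 1, 0.18 without cafeteria replicate 2, 0.43 without standard replicate 2 and 0.40 without cafeteria replicate 5, and turned to −0.46 in the fit with the GAPDH ratio as covariate. Over deviations from the group means the Sort1 probesets correlated with each other at only r = 0.14 (10 arrays).

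Sorl1 encodes SorLA, a larger receptor that also carries repeats of the LDL receptor type and is known for steering the amyloid precursor protein between endosomes and the Golgi. Its brightest probeset, 1377457_a_at, stood at percentile 99.2 by mean log2 signal. It read 9910.1, 9612, 10365, 9409 and 10528 in cafeteria arrays, against 10808, 9750.1, 10371, 9941 and 9879 in standard arrays. The groups overlapped and the coefficients of variation were small, at 4.80% in the cafeteria group and 4.29% in the standard group. The log2 difference was −0.03 (SE 0.069), with a 95% interval from −0.18 to 0.13, that is from 0.883 to 1.09 times the standard level. It was 0.061 in the fit with the GAPDH covariate and 0.01 in the fit with the immune covariate.

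Another bright Sorl1 probeset, 1394786_at, read 9009, 8508, 9686, 8233 and 9327 in cafeteria arrays, against 9388, 9552, 10274, 9427 and 9993 in standard arrays. Here 4 of 5 cafeteria arrays lay below every standard array, and cafeteria replicate 3 lay among them. The log2 difference was −0.12 (SE 0.073, 95% interval −0.28 to 0.04).

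The other Sorl1 probesets above the filter showed no common direction. Over all 7, the log2 difference was negative in 4 and positive in 3, from −0.14 for 1386269_x_at to 0.06 for 1393933_at, with a median of −0.03. All 7 intervals included 0. The probesets 1393933_at, 1390710_x_at, 1377458_at and 1393626_at averaged 5583, 5105, 2943 and 1408 in the cafeteria group, against 5346, 5333, 2917 and 1354 in the standard group. The dim probeset 1386268_at ran from 41.8 to 86.8 in cafeteria arrays and from 25.6 to 87.3 in standard arrays. The Sorl1 probesets are not independent: 3 were designed on one source sequence and 2 on another, and a name ending in _x_at marks probes that can also bind other sequences. Their pairwise r over deviations from the group means ran from −0.28 to 0.87 in 21 pairs, with a median of 0.53 and 17 of the 21 above 0.

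**Figure D3:**
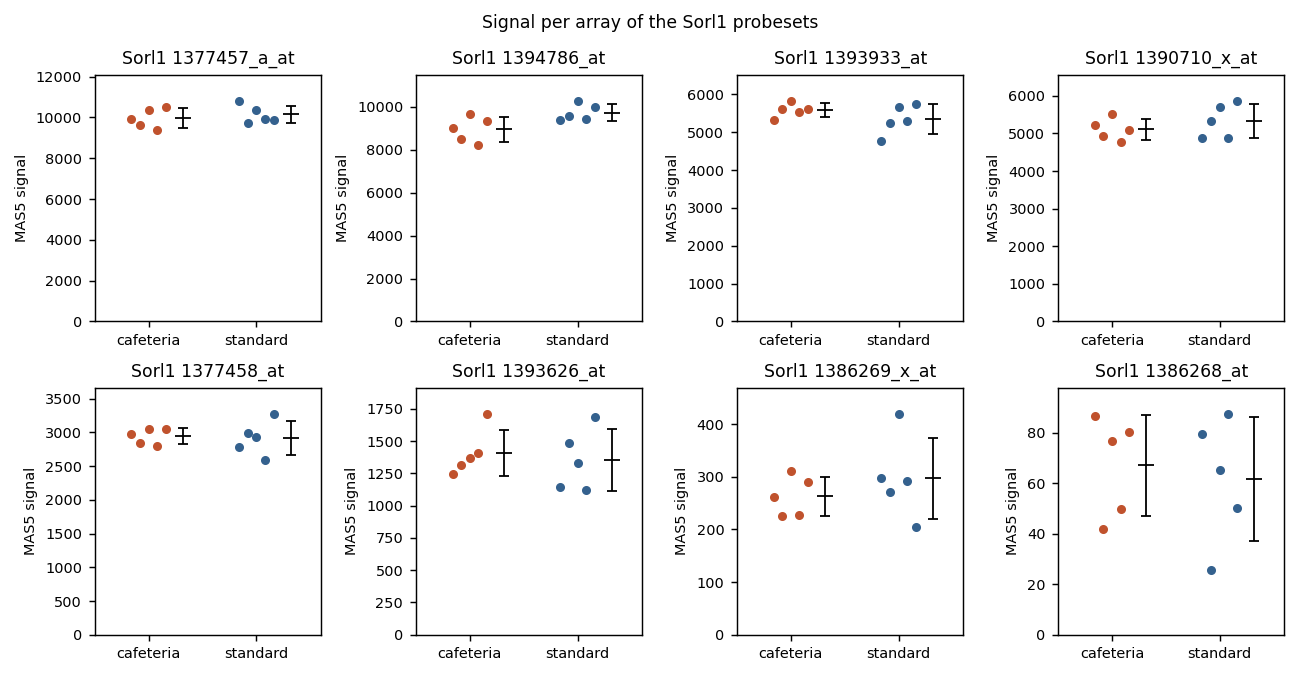
MAS5 signal (linear axis from 0) on each array for the 8 Sorl1 probesets, brightest first, with cafeteria arrays at left and standard arrays at right in each panel; points are arrays and bars show mean ± SD (n = 5). The groups overlap in every panel, and the probesets differ widely in brightness although they share a gene.

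Sorcs2 was picked for its difference, so its interval cannot be set against those of Sort1 and Sorl1, and no difference between the genes was tested. Among the Sort1 and Sorl1 intervals, only that of the Sorl1 probeset 1386269_x_at, from −0.50 to 0.22, held the Sorcs2 value of −0.38. Nothing is read from this, given how Sorcs2 was picked. Of the 10 receptor probesets fitted, 1 had groups that did not overlap and was lower in the cafeteria group, where 1.45% of all 18625 probesets were so placed; 0 of the 10 were fully separated in the higher direction, against 0.988% of all. At an adjusted p under 0.05, limma called 0 of the 10, and 0% of all probesets. At an unadjusted p under 0.05 the count was 1 of the 10, against 10.4% of all probesets; by direction that was 1 lower against 4.91% of all, and 0 higher against 5.51% of all. These counts restate the choice of Sorcs2 by this comparison; they are no test of it, and nothing is read from them. The median log2 difference was −0.01 over the 10 probesets and 0.01 over all 18625.

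**Figure D4:**
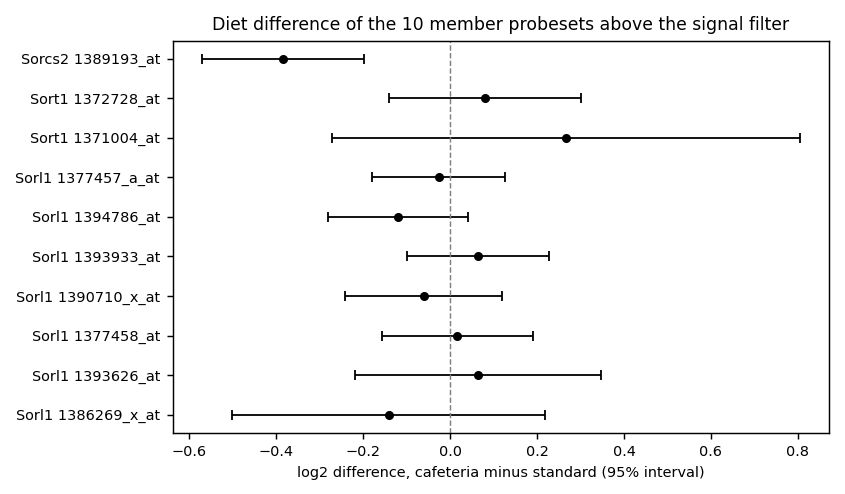
Log2 difference, cafeteria minus standard, with its 95% interval from limma for the 10 receptor probesets above the signal filter. Sorcs2, picked for its difference, lies at −0.38 with an interval from −0.57 to −0.20, and the other 9 intervals cross the dashed line at 0.

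Variation from array to array was compared over deviations from the group means. Sorcs2 correlated with the Sort1 probesets at r = −0.09 and −0.48, and with the 7 Sorl1 probesets at r from −0.32 to 0.46. The r of −0.48, with 1371004_at, was −0.84 without the 2 arrays in which Sorcs2 deviated most, and the r of 0.45 with the brightest Sorl1 probeset was 0.74 without them. The 14 pairs of a Sort1 and a Sorl1 probeset ran from −0.70 to 0.44, with 4 above 0. All points share the same 10 arrays and their scaling.

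The genes whose deviations from the group means were most like those of Sorcs2 were sought among 13956 probesets with a named gene. They were Heatr4 (r = 0.92, rho = 0.89), Itgae, which encodes an integrin chain (r = 0.90, rho = 0.93), Ctr9, which encodes a part of the PAF transcription elongation complex (r = 0.90, rho = 0.84), Ccdc181 (r = 0.89, rho = 0.85) and Haus8, which encodes a subunit of the augmin complex of the spindle (r = 0.88, rho = 0.88). Without the 2 arrays in which Sorcs2 deviated most, r for these 5 stayed between 0.78 and 0.94. Those most opposed were Polr3a, which encodes the largest subunit of RNA polymerase III (r = −0.94, rho = −0.78), and Adipor2, a receptor for adiponectin (r = −0.94, rho = −0.93). Sorcs2 differed between the diets by −0.38 on the log2 scale, while the 5 genes most like it differed by −0.16 to 0.09. The opposed genes Polr3a and Adipor2 differed by 0.11 (SE 0.082) and 0.28 (SE 0.113). For the brighter Sort1 probeset alone the most similar were Akr1c15 (r = 0.96), Sec23b, a coat protein of vesicles that leave the endoplasmic reticulum (r = 0.94), and Cdcp1 (r = 0.93). For the brightest Sorl1 probeset alone they were the phosphoinositide phosphatase gene Mtm1 (r = 0.95), the exonuclease gene Trex1 (r = 0.93) and the glucagon receptor gene Gcgr (r = 0.92). As extremes among all these candidates over 10 arrays, these values are descriptions without p.

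The machinery that works with the receptors was followed through 4 gene lists, using the brightest probeset of each gene. Among all 10301 genes tested, limma called 0% at an adjusted p under 0.05, and at an unadjusted p under 0.05 5.03% were higher and 5.25% lower in the cafeteria group. The median log2 difference of all genes was 0.00.

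Retromer and the sorting adaptors bind the receptor tails. Their list also holds Rab7a, Igf2r and M6pr, which are neither retromer subunits nor adaptors. All 21 genes of that list were above the filter, and 0 passed in either direction, at an adjusted or an unadjusted p under 0.05. Of the 21, 8 were higher and 13 lower, with a median log2 difference of −0.02. The genes of lowest p were subunits of the AP-1 adaptor, which sorts cargo at the trans-Golgi network, and a GGA adaptor. Ap1s1 differed by 0.22 (SE 0.106, limma adjusted p = 0.486), Ap1b1 by 0.28 (SE 0.149), Ap1g1 by 0.23 (SE 0.127) and Gga3 by 0.16 (SE 0.104). Ap1m1, also an AP-1 subunit gene, differed by −0.01 (SE 0.108). In the fit with the GAPDH covariate, Ap1s1 differed by 0.06, Ap1b1 by 0.10 and Ap1g1 by 0.03, while Gga3 differed by 0.27. The retromer core gene Vps35 had a signal of 6485 ± 418 in the cafeteria group and 6727 ± 577 in the standard group (SD, n = 5 each), a log2 difference of −0.05 (SE 0.084, limma adjusted p = 0.848).

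The ligands, cargo and partner receptors were often too dim to test. Of 28 genes, 24 were on the array under a single symbol and 11 passed the filter; Bdnf, Ntf3, Ntf4, Nts and the p75 receptor gene Ngfr were among those below it. Of the 11 tested, 0 passed at an adjusted or an unadjusted p under 0.05, 8 were higher and 3 lower, and the median log2 difference was 0.07. Without a signal filter, the list's count at an unadjusted limma p under 0.05 was 4, and at an adjusted p it stayed 0. Bace1, the protease that makes the first cut of the amyloid precursor protein on the way to amyloid β, differed by 0.29 (SE 0.144, limma adjusted p = 0.502). Psap, which encodes the lysosomal sortilin cargo prosaposin, differed by 0.17 (SE 0.089), the neurotrophin receptor gene Ntrk2 by 0.18 (SE 0.097) and Apoe, an apolipoprotein gene, by −0.49 (SE 0.343). The Apoe value was −0.78 without cafeteria replicate 3, −0.24 without cafeteria replicate 5 and −0.04 with the immune mean as a covariate, and that of Bace1 was 0.002 with the GAPDH covariate. Only 1 Apoe probeset was above the filter. With all probesets of the gene averaged before the filter, Apoe differed by −0.10 (SE 0.214). The progranulin gene Grn, whose product is a sortilin ligand, differed by 0.07 (SE 0.090, limma adjusted p = 0.798).

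Proteases cleave the receptor precursors and shed their outer domains. Of the 10 genes tested on that list, 0 passed at an adjusted p, and 2 were lower and 0 higher at an unadjusted p under 0.05. The shares of all tested genes at that unadjusted p were 5.25% lower and 5.03% higher. The sheddase gene Adam10 averaged 312 ± 51.3 in the cafeteria group and 407 ± 73.1 in the standard group (SD, n = 5 each), a log2 difference of −0.37 (SE 0.143, limma adjusted p = 0.438), and its 2 probesets were both lower. The γ-secretase subunit gene Aph1a differed by −0.22 (SE 0.093, limma adjusted p = 0.46), whereas Ncstn, another subunit gene, differed by 0.15 (SE 0.107). The convertase gene Pcsk7 differed by 0.14 (SE 0.093), and Adam17, also a sheddase gene, by −0.04 (SE 0.092). The list median was 0.00. The count at an unadjusted p was 0 or 1 without cafeteria replicate 1, 3, 4 or 5 or standard replicate 1, 2, 4 or 5.

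Genes of granule formation and granule cargo were mostly higher in the cafeteria group without passing. Of 19 tested, 17 were higher and 2 lower, with a median log2 difference of 0.16. At an adjusted p limma called 0, and at an unadjusted p under 0.05 5 were higher and 0 lower. Of all tested genes, 5.03% were higher and 5.25% lower at that unadjusted p. The granin genes Chga and Chgb differed by 0.28 (SE 0.110, limma adjusted p = 0.439) and 0.35 (SE 0.149), the granule membrane gene Ptprn by 0.49 (SE 0.200) and the processing enzyme gene Cpe by 0.24 (SE 0.099). Without cafeteria replicate 5, Ptprn differed by 0.30 and Chgb by 0.20, and with quantile normalization Cpe differed by 0.04. The count at an unadjusted p under 0.05 also moved with single arrays. It was 3 without cafeteria replicate 5, in which Chgb and Ptprn were highest, 2 without cafeteria replicate 3, and 1 to 3 without any one of the standard arrays. Leaving out cafeteria replicate 1 or 4 gave 6, and leaving out cafeteria replicate 2 gave 5. The count was 0 with each array centred on its median, and 7 with the signal filter at the 70th percentile.

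**Figure D5:**
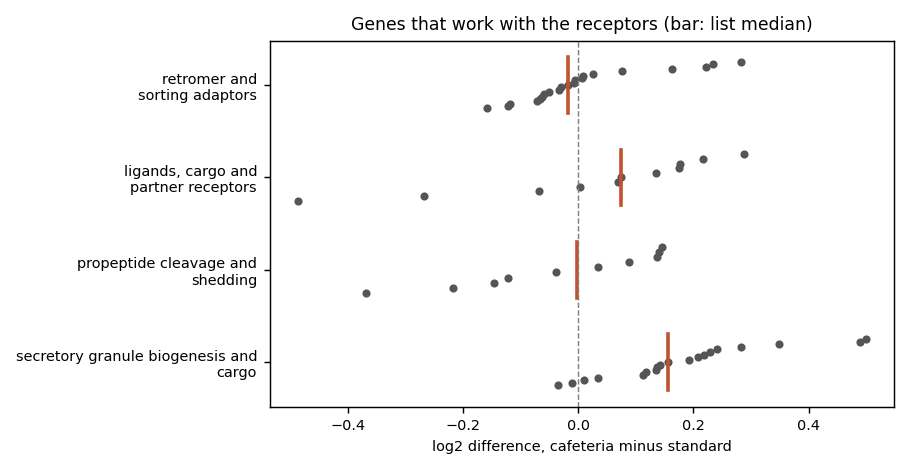
Log2 difference, cafeteria minus standard, of every tested gene in the 4 lists, 1 point per gene, with a vertical bar at each list's median. Retromer and protease lists centre near 0 (medians −0.02 and 0.00), and 17 of the 19 granule genes lie right of the dashed line at 0.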

How the data were processed

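The deposited values are linear intensity values, 1 column per array, made with MAS5 per the submitters' processing notes, without a version. The 2% trimmed mean of each column was 500.1 or 500.2, so the authors' scaling to a common level was kept. Values were transformed as log2(intensity + 14.15), the pseudocount being the 10th percentile of all values, so fold changes of dim genes are understated. The 57 control probesets were left out of the fit. Each of 18625 probesets with a mean above the 40th percentile was fitted with limma 3.58.1 (R 4.3.3; lmFit, eBayes; residual df 8, prior df 3.11), cafeteria minus standard, with Benjamini-Hochberg adjustment; the fit was tested on simulated data. Exact permutation tests used the 252 divisions of 10 arrays.

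Members and lists were chosen with earlier results of these data known. Named genes are all members, the 4 of lowest p in each list (other list members were named for their role after their values were seen), the hormone genes Ins1, Ins2, Gcg and Sst, and the genes most correlated with a member; those for Sorcs1 and Sorcs3 are not given because both were below the filter. Ins2 differed by 0.21 and Sst by 0.21 on the log2 scale (limma adjusted p = 0.618 and 0.478). The main fit did not treat replicate numbers as pairs, because the samples share only a number. Over replicate numbers shared by the groups, deviations correlated from 0.00 to 0.30, and 3 of 5 pairs were above 0.1. These values do not show that the numbers carry nothing in common, and a replicate block was fitted as an alternative. Alternatives were other pseudocounts, filters, normalizations, variance models, array weights, a replicate block, covariates, gene means and leaving out each array. Probesets with several or no gene symbols were tested but not named. No coordinates are given, since the array table names no genome build.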

Additional observations from a re-analysis of the deposited data

Results flagged for a closer look

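Of 94 sets of 5 arrays examined (the receptor probesets, 20 named genes, marker means and control ratios in each diet), 11 passed Dixon's test for a stray array, where chance gives about 1 in 20 (4.7). All values are log2. Among the receptors, Sorcs1 was highest in standard replicate 4 at 6.78 (others 5.95 to 6.14). Cafeteria replicate 5 was highest for Ntrk2 at 12.14, Ptprn at 13.87 (others 12.79 to 13.03), Chgb at 14.36 (others 13.52 to 13.70) and the glial and neuronal mean at 10.17. In other cafeteria arrays, the immune mean was highest in replicate 3 at 9.33 (others 7.90 to 8.28) and the red blood cell mean lowest in replicate 1 at 9.72. Among standard arrays, Psap was lowest in replicate 1 at 12.61 (others 12.93 to 12.96), Ncstn lowest in replicate 3 at 10.50, Gcg lowest in replicate 5 at 14.59 and the endothelial mean highest in replicate 5 at 10.26.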

How the results depend on the processing

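The Sorcs2 difference was negative under all 23 other settings, from −0.42 (median centring) to −0.24 (GAPDH covariate). With that covariate its SE was 0.109, against 0.085 in the main fit. The Sorcs2 difference ran from −0.42 to −0.35 when 1 array was left out. Because the gene was chosen on these arrays, these values are no independent support. In the fit with the GAPDH covariate, the Sort1 probeset 1371004_at was at −0.46 and the Sorl1 probeset 1377457_a_at at 0.061; the cause was not tested. With the replicate block, Sorcs2 differed by −0.38 (SE 0.10) and 0 receptor probesets were called. The block changed no call at an adjusted p. At an unadjusted limma p under 0.05 it gave 2349 probesets, against 1941 in the main fit. The samples share only a number, though 3 of 5 cafeteria arrays correlated best with their own number. Whether arrays of one number belong together was not tested. Leaving out 1 array gave 0 to 1 called probesets over the whole array; the 1, without standard replicate 2, was Emp1. The GAPDH log2 ratio difference ran from −0.26 to −0.17 with 1 array left out, a choice made after seeing the data. The number of list genes called was 0 in every setting. At an unadjusted p under 0.05 it ran from 0 to 2 for retromer and adaptors (2 without standard replicate 2, 1 without standard replicate 5), 0 to 4 for ligands and partners (1 without cafeteria replicate 3 or standard replicate 2 or 4, 2 without standard replicate 5), 0 to 2 for proteases and 0 to 7 for granule genes. For ligands and partners the count was 4 without a signal filter and 3 with the acinar mean as a covariate. All 455 values for the 20 named list and hormone genes kept their direction, and none was called in any setting, but their sizes moved: Bace1 from 0.29 to 0.002 with the GAPDH covariate, Apoe from −0.49 to −0.04 with the immune covariate, and with quantile normalization Gcg from 0.23 to 0.03 and Cpe from 0.24 to 0.04. Without detection calls, dim probesets have no known background.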
